A study of Mus musculus with 8 samples.

Results

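A set of 10 inhibitors of signalling from the T-cell antigen receptor was followed through culture of mouse CD8+ T cells. They were the E3 ubiquitin ligases *Cblb* and *Cbl*, the diacylglycerol kinases *Dgka* and *Dgkz*, the tyrosine phosphatases *Ptpn2*, *Ptpn6* and *Ptpn22*, the ubiquitin-binding protein *Ubash3a*, and the surface receptors *Cd5* and *Cd6*. These 10 symbols were taken by name from the 48321 gene symbols in each count table. All 10 were among the 12597 genes with enough counts to be tested. RNA was sequenced in 8 libraries of splenic CD8+ T cells of C57BL/6 mice, with 2 libraries for each combination of genotype (WT or KO) and time (day 0, or day 5 of culture in vitro). The series describes the cells as coming from *Satb1* F/F; *E8I-cre* mice, in which both *Satb1* alleles are floxed and Cre is driven by a *Cd8a* enhancer active in mature CD8 lineage cells. Only the titles of the samples give WT or KO. Whether WT cells carried floxed alleles or Cre, the age of the mice, whether libraries came from separate mice, and the stimulating agents are not given in the sources used here. The p-values therefore measure the spread between these libraries, which may be technical.

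*Satb1*, the targeted gene, went against its label before culture. It measured 97.8 and 91.6 CPM in WT and 144 and 125 CPM in KO at day 0, where CPM is a gene's share of the counts of its library, scaled by the trimmed mean of M-values (TMM). After culture it measured 96.5 and 116 CPM in WT and 56.5 and 62.3 CPM in KO, and the log2 fold change of -0.84 ± 0.15 (SE) had an adjusted p of 0.0162 (edgeR quasi-likelihood test, Benjamini-Hochberg FDR). The day 5 call was lost without replicate 2 of WT at day 5 (-0.70, FDR = 0.0848), replicate 1 of KO at day 5 (-0.77, FDR = 0.174) or replicate 2 of KO at day 5 (-0.91, FDR = 0.156). At day 0 the difference was 0.51 ± 0.15 (FDR = 0.125). A count over the whole gene does not measure a deletion of part of it. Why *Satb1* was not lower in KO at day 0 was not tested. Genotype differences are therefore given below as differences between libraries labelled KO and WT, with KO standing for that label only. Libraries held 4170126 to 11117971 counts assigned to genes, with replicate 1 of KO at day 0 the deepest. The T-cell and CD8 markers *Cd8a*, *Cd8b1*, *Cd3d*, *Cd3e* and *Cd3g* summed to between 9521 and 10683 CPM at day 0. At day 5 the sum was between 6160 and 6871 CPM. In WT, mean CPM fell for *Cd8b1* (3860 to 1239), *Cd8a* (1430 to 783) and *Cd3e* (1065 to 569). *Cd3d* (1549 to 1575) and *Cd3g* (2341 to 2120) were not called in WT. In KO, *Cd8b1* (3392 to 1321) and *Cd3e* (1055 to 648) were called lower, and *Cd8a*, *Cd3d* and *Cd3g* were not called. *Cd4* and *Zbtb7b* together stayed under 6 CPM in every library, as did the NK-cell markers (at most 1.43 CPM) and the erythroid markers (at most 0.904 CPM). In the B-cell and myeloid lists, 5 of 7 markers each stayed under 6 CPM in all libraries, among them *Ms4a1*, *Lyz2* and *Cd14*. The exceptions that moved with culture were *Ighm* (1899 to 2277 CPM at day 0, 1392 to 1554 CPM at day 5), *Cd79b* (118 to 164 CPM, then 66.7 to 83.3 CPM), *Csf1r* (6.80 to 11.7 CPM, then 3.53 to 4.73 CPM) and *Cd68* (2.23 to 5.14 CPM, then 30.7 to 68.4 CPM). The part of these transcripts in the results below was not tested.

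Engagement of the T-cell receptor activates the kinases Lck and Zap70, which phosphorylate the adaptor Lat and lead to the second messenger diacylglycerol and to calcium entry. Brakes act at each of these steps. CBL proteins mark receptor components and kinases with ubiquitin, diacylglycerol kinases convert diacylglycerol to phosphatidic acid, phosphatases remove the activating phosphates, UBASH3A binds ubiquitin and is a suppressor of receptor signalling, and CD5 and CD6 are scavenger-receptor family proteins at the cell surface whose tails recruit signalling inhibitors and adaptors. In CD8+ T cells such brakes are known to set how much antigen is needed for a response.

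Reference promoter windows (RefSeq, assembly GRCm38.p6, 250 bases before to 50 after a start site) were found for 8 of the 10 genes, all but *Cd6* and *Ptpn2*. For genes with several start sites the window closest to the start of the annotated gene was used. The windows of *Cd5* and *Dgka*, which fell with culture, and of *Ptpn22*, which rose, are shown because these genes moved in opposite directions. Capitals mark matches on either strand to the ETS-factor core GGAAGT, and ACTTCC is its reverse complement. All are written 5′ to 3′ on the strand of the gene, and lie at chr19:10738925-10739224 (minus strand) for *Cd5*, chr3:103859545-103859844 (plus strand) for *Ptpn22* and chr10:128745035-128745334 (minus strand) for *Dgka*.
Cd5: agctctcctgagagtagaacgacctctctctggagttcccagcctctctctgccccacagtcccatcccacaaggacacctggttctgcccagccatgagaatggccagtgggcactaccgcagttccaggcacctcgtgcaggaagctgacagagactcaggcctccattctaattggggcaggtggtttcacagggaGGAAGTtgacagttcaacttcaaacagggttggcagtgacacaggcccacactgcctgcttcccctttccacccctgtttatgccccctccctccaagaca
Ptpn22: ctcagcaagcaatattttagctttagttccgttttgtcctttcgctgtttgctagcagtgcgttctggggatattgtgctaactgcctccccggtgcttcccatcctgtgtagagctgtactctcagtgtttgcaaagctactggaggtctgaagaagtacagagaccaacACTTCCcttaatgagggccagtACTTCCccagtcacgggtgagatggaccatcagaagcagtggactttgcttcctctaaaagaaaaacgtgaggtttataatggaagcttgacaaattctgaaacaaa
Dgka: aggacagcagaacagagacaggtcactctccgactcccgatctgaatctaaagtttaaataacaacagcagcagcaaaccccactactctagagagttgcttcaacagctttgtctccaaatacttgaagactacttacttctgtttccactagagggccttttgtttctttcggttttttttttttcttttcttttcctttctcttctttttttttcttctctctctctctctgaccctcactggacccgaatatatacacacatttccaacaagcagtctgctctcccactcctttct
*Cd5* had 1 match, with its first base 51 bases before the start site. *Ptpn22* had 2, at 79 and 57 bases before it. The same letters occurred in the windows of *Dgkz* (76 bases before the start site) and *Ptpn6* (190 and 101 bases before). They also occurred in 23.8% of all 32851 windows in the reference. The start site of the *Dgkz* window lies 12301 bases from the annotated start of the gene. The window of *Dgka* held none of the 4 motifs searched on both strands, which were GGAAGT, the RUNX core TGTGGT (in 16.8% of all windows), the AP-1 site TGANTCA (7.81%) and the forkhead core GTAAACA (3.65%). *Cblb*, *Cbl* and *Ubash3a* also had no match. The motif therefore lay in windows of a gene that fell and of a gene that rose, and no match says only that these letters are not in the window.

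Culture changed most of the brakes, and in both directions. In WT, 6 of the 10 genes fell from day 0 to day 5 (*Cd6*, *Dgka*, *Cd5*, *Dgkz*, *Ubash3a* and *Ptpn6*), 2 rose (*Ptpn2* and *Ptpn22*), and *Cbl* and *Cblb* did not pass the test. In the libraries labelled KO, 6 also fell, with *Cbl* in the place of *Ptpn6*, and the same 2 genes rose. Across all genes tested, 48.3% were called in WT (24.7% higher, 23.6% lower) and 50.2% in KO (26.2% higher, 24.0% lower), so a change with culture was common. The median log2 change of the brakes was -0.58 in WT and -0.48 in KO, beside medians over all genes of -0.04 and -0.05. In bulk RNA, fewer cells of a type and less RNA per cell cannot be told apart. Day of culture also cannot be told apart from any batch in which libraries of a day were made.

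**Figure D1:**
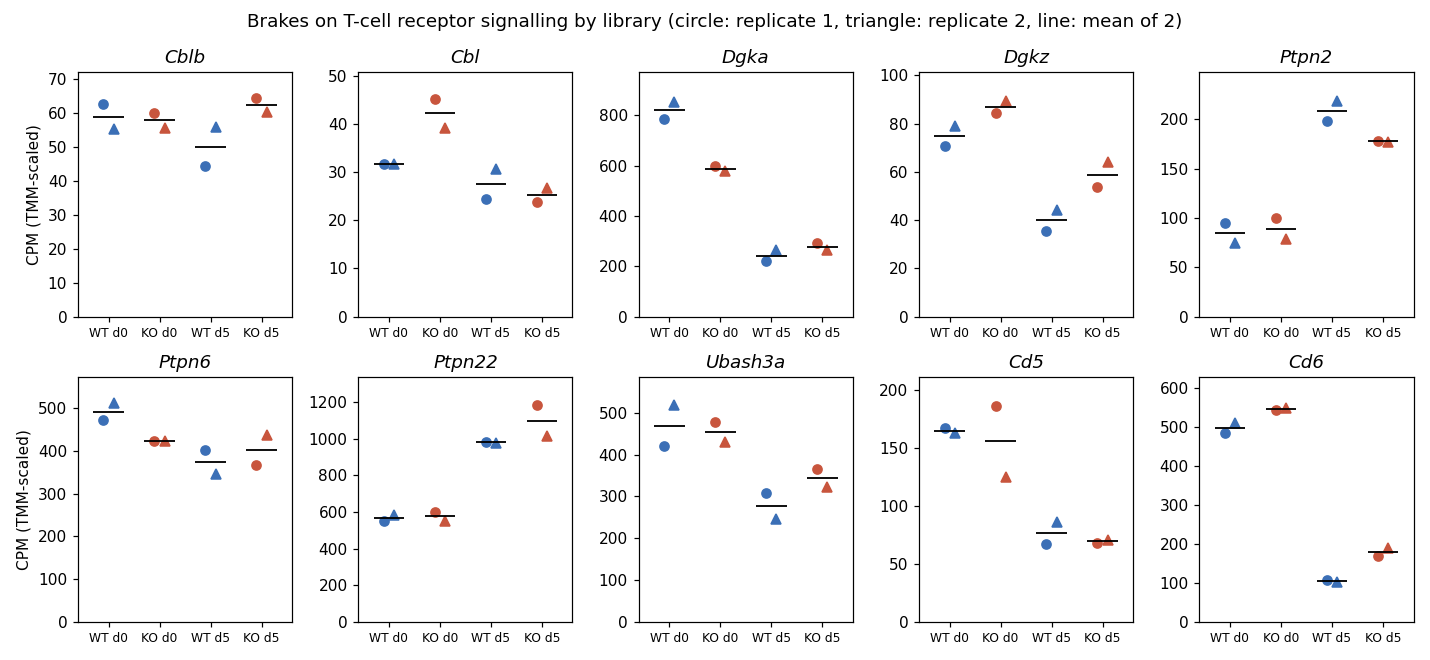
CPM (vertical axes, TMM-scaled, each starting at 0) of the 10 brakes in each of the 8 libraries, with blue for WT, red for libraries labelled KO, circles for replicate 1, triangles for replicate 2 and lines for the mean of 2. *Cd6* and *Dgka* were higher at day 0 than at day 5 (486 to 549 and 580 to 853 CPM), while *Ptpn22* and *Ptpn2* were higher at day 5 (977 to 1182 and 177 to 218 CPM).

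The surface receptors fell. *Cd6*, a receptor for the adhesion protein ALCAM (chr19:10789341-10830058, minus strand), measured 486 and 509 CPM in WT and 544 and 549 CPM in KO at day 0. At day 5 it measured 106 and 103 CPM in WT and 168 and 190 CPM in KO. The days did not overlap in either genotype, and at both days both KO libraries lay above both WT libraries. The fall was 4.74-fold in WT (log2 -2.25 ± 0.12, FDR = 1.69e-08) and 3.05-fold in KO (log2 -1.61 ± 0.12, FDR = 2.42e-07). *Cd5*, whose level in T cells is known to follow the strength of self-recognition (chr19:10717116-10739002, minus strand), measured 167 and 163 CPM in WT and 186 and 126 CPM in KO at day 0. Its day 5 values were 67.2 and 86.5 CPM in WT and 68.2 and 70.8 CPM in KO. The genotypes overlapped at both days and the days did not. The decrease was 2.16-fold in WT (log2 -1.11 ± 0.19, FDR = 0.000365) and 2.25-fold in KO (log2 -1.17 ± 0.19, FDR = 0.000211). *Cd5* and *Cd6* are neighbours, 50338 bases apart on chromosome 19 (GRCm38, GENCODE M21), with 1 annotated gene between them.

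Both diacylglycerol kinases fell. *Dgka* (chr10:128720134-128744855, minus strand) measured 788 and 853 CPM in WT and 597 and 580 CPM in KO at day 0. At day 5 the values were 220 and 265 CPM in WT and 291 and 264 CPM in KO. WT libraries were the higher before culture, and the genotypes overlapped after it. The fall was 3.38-fold in WT (log2 -1.76 ± 0.13, FDR = 2.54e-07) and 2.12-fold in KO (log2 -1.09 ± 0.13, FDR = 1.51e-05). *Dgkz* (chr2:91932824-91975864, minus strand), the other family member known to act on diacylglycerol in T cells, measured 70.8 and 78.9 CPM in WT and 84.3 and 89.6 CPM in KO at day 0, and 35.5 and 44.3 CPM in WT and 53.5 and 64.2 CPM in KO at day 5. Each KO value exceeded both WT values of its day. It fell 1.88-fold in WT (log2 -0.91 ± 0.17, FDR = 0.000769) and 1.48-fold in KO (log2 -0.56 ± 0.16, FDR = 0.0122). The KO call was lost without replicate 1 of KO at day 5 (-0.42, FDR = 0.149). Exons of other genes on the opposite strand cover 2.21% of the exon length of *Dgka*, 3.54% of *Dgkz* and 6.96% of *Ptpn6*, and whether counting used strand is not given in the sources used here. Of the related kinases, *Dgkq* fell in both genotypes (log2 -0.60 and -0.68, FDR = 0.0333 and 0.0149), calls lost with DESeq2 (FDR = 0.126 and 0.062), and *Dgkd* did not pass the test in either (0.15 and 0.33, FDR = 0.485 and 0.111).

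The phosphatases went different ways. *Ptpn2*, which dephosphorylates Lck, Fyn and the JAK and STAT proteins (chromosome 18, minus strand), measured 95.0 and 74.6 CPM in WT and 100.1 and 78.2 CPM in KO at day 0. It measured 198 and 218 CPM in WT and 178 and 177 CPM in KO at day 5. It rose 2.45-fold in WT (log2 1.29 ± 0.16, FDR = 2.98e-05) and 1.98-fold in KO (log2 0.99 ± 0.16, FDR = 0.000216), with no overlap of days. *Ptpn22*, which acts on Lck and Zap70 (chr3:103859795-103912247, plus strand), measured 553 and 580 CPM in WT and 601 and 550 CPM in KO before culture, and 982 and 977 CPM in WT and 1182 and 1013 CPM in KO after it. The rise was 1.73-fold in WT (log2 0.79 ± 0.12, FDR = 0.000122) and 1.91-fold in KO (log2 0.93 ± 0.12, FDR = 2.83e-05). *Ptpn6*, which encodes SHP-1 (chr6:124720707-124738714, minus strand), measured 472 and 513 CPM in WT and 423 and 423 CPM in KO at day 0. At day 5 it measured 403 and 347 CPM in WT and 367 and 437 CPM in KO. The fall in WT was 1.31-fold (log2 -0.39 ± 0.13, FDR = 0.0234), and in KO the days overlapped (log2 -0.07 ± 0.13, FDR = 0.657). The WT call was lost without replicate 1 of WT at day 0 (-0.44, FDR = 0.0601), replicate 2 of WT at day 0 (-0.32, FDR = 0.158) or replicate 2 of WT at day 5 (-0.25, FDR = 0.15). With an offset for GC content and exon length *Ptpn6* was also called lower in KO (log2 -0.48, FDR = 0.00564). Among the related phosphatases, *Ptpn1* rose in WT (0.58, FDR = 0.00803; 0.35 in KO, FDR = 0.0713), *Ptpn12* fell in both (-0.73 and -0.73, FDR = 0.0224 and 0.0284; 0.0569 and 0.0679 with DESeq2), and *Ptpn11*, which encodes SHP-2, did not pass the test (-0.11 and 0.07, FDR = 0.796 and 0.853).

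*Ubash3a* (chr17:31207873-31246892, plus strand) measured 420 and 519 CPM in WT and 477 and 431 CPM in KO at day 0. After culture it measured 308 and 247 CPM in WT and 365 and 322 CPM in KO. All 4 cultured libraries lay below all 4 uncultured ones. It fell 1.69-fold in WT (log2 -0.76 ± 0.15, FDR = 0.00106) and 1.32-fold in KO (log2 -0.40 ± 0.15, FDR = 0.0359). The KO call was lost with DESeq2 size factors (FDR = 0.0533), with the GC and length offset (FDR = 0.181), and without replicate 1 of KO at day 0 (FDR = 0.187), replicate 1 of KO at day 5 (FDR = 0.0691) or replicate 2 of KO at day 5 (FDR = 0.237). Its paralogue *Ubash3b* did not pass the test (-0.35 and -0.55, FDR = 0.264 and 0.0750).

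Of the ubiquitin ligases, *Cbl* fell in KO and *Cblb* did not pass the test. *Cblb*, whose product is known to enforce the need for costimulation (chr16:52031225-52208048, plus strand), measured 62.8 and 55.2 CPM in WT and 60.0 and 55.6 CPM in KO at day 0. It measured 44.3 and 55.9 CPM in WT and 64.6 and 60.4 CPM in KO at day 5. Neither change passed the test (log2 -0.24 ± 0.17 in WT, FDR = 0.255; 0.11 ± 0.16 in KO, FDR = 0.598). *Cbl* (chr9:44142976-44234049, minus strand) measured 31.7 and 31.7 CPM in WT and 45.2 and 39.3 CPM in KO at day 0. Its day 5 values were 24.5 and 30.6 CPM in WT and 23.9 and 26.7 CPM in KO. It fell in KO (log2 -0.74 ± 0.18, FDR = 0.00464) and did not pass the test in WT (-0.21 ± 0.19, FDR = 0.392). The KO call was lost without replicate 1 of KO at day 5 (-0.65, FDR = 0.0655). The third family member, *Cblc*, did not pass the filter on low counts.

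**Figure D2:**
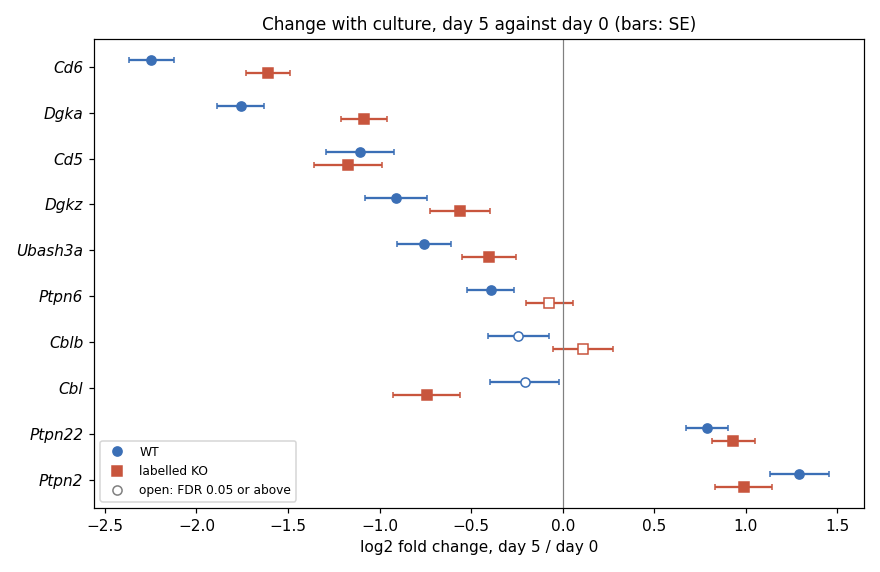
Log2 fold change from day 0 to day 5 (horizontal axis) of each brake in WT (blue circles) and libraries labelled KO (red squares), with bars for the SE and open symbols for an FDR of 0.05 or above. The changes run from -2.25 for *Cd6* to 1.29 for *Ptpn2*, both in WT.

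Before culture, none of the 10 brakes differed between libraries labelled KO and WT at an FDR under 0.05 with edgeR, where 1.80% of all genes did. At an unadjusted p under 0.05 there were 2 (13.8% of all genes), and DESeq2 called 1 (3.0% of the 9910 genes to which it gave an FDR). That gene was *Dgka*, which was lower in both KO libraries (log2 -0.48 ± 0.12, FDR = 0.0827). Its FDR was 0.0234 with DESeq2 and 0.0314 with only the 4 libraries of day 0, and 0.0279 or 0.0360 without replicate 1 or 2 of WT at day 5. Over all alternatives it ranged from 0.0234 to 0.403, with the change between -0.54 and -0.42. *Cbl* was higher in both KO libraries by 0.42 ± 0.18 (FDR = 0.319).

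After culture, *Cd6* was the brake called between genotypes. It was 1.71-fold higher in the libraries labelled KO (179 ± 16.1 CPM, mean ± SD, n = 2) than in WT (105 ± 2.1 CPM, n = 2), with a log2 difference of 0.77 ± 0.12 (edgeR FDR = 0.00778). All genes called at day 5 made up 1.63%, and those called higher 1.31%. The call was lost without replicate 2 of KO at day 5 (0.68, FDR = 0.151), and held in the other 15 alternatives. The next largest differences were those of *Dgkz* (0.57 ± 0.17, FDR = 0.135), *Cblb* (0.32 ± 0.17, FDR = 0.418) and *Ubash3a* (0.31 ± 0.15, FDR = 0.378), and none of these passed the test. *Cd8a*, a marker of the cells, was likewise higher in KO at day 5 (0.60 ± 0.11, FDR = 0.0155), at 832 and 734 CPM in WT and 1216 and 1164 CPM in KO. Its call was lost with only the 4 libraries of day 5 (0.59, FDR = 0.0593) and without replicate 1 or 2 of KO at day 5 (0.57 and 0.63, FDR = 0.129 and 0.126). *Cd8b1* was not called (0.09 ± 0.10, FDR = 0.753). Their part in the *Cd6* result was not tested.

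Whether the genotype difference itself changed between days was tested as an interaction, which asks equally whether the culture response differed by genotype. None of the 10 passed with edgeR, where 0.159% of all genes did, and 2 had an unadjusted p under 0.05 (12.4% of all genes). Those were *Dgka*, with an interaction of 0.67 ± 0.18 (log2, FDR = 0.167), and *Cd6*, with 0.64 ± 0.17 (FDR = 0.163), positive values being a smaller fitted fall in KO. DESeq2 called both (FDR = 0.0394 and 0.0479), and 1.87% of the 7224 genes to which it gave an FDR. The FDR of *Dgka* lay between 0.0394 and 0.526 across alternatives, and that of *Cd6* between 0.0479 and 0.591. The values of *Cbl* (-0.54 ± 0.26, FDR = 0.435) and *Ptpn6* (0.32 ± 0.18, FDR = 0.506) did not pass either, so a call in one genotype and not in the other was not shown to differ between them.

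**Figure D3:**
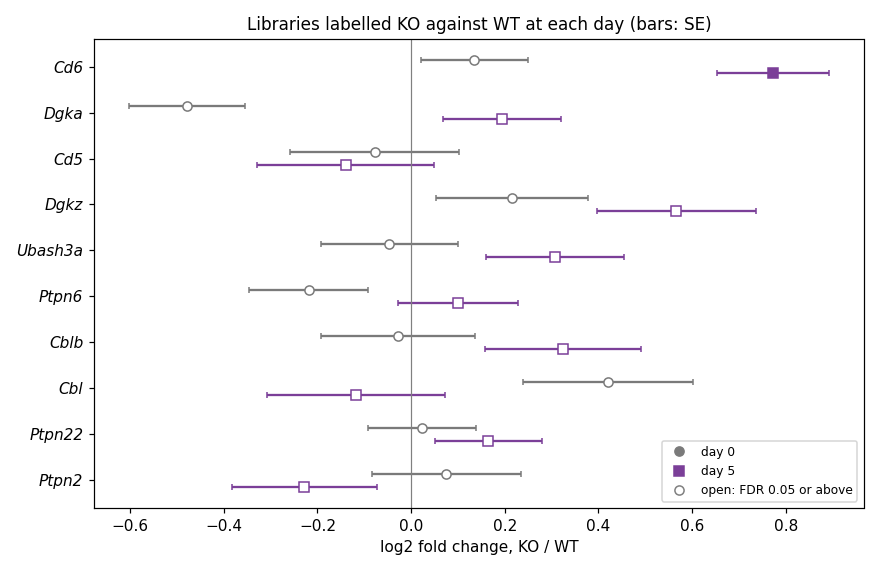
Log2 fold change of libraries labelled KO against WT (horizontal axis) of each brake at day 0 (grey circles) and day 5 (purple squares), with bars for the SE and open symbols for an FDR of 0.05 or above. The filled square is *Cd6* at day 5 (0.77).

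Levels of different genes were compared per kilobase of merged exons (RPKM from the same counts). In WT at day 0 *Ptpn6* (176 ± 10.4 RPKM, mean ± SD, n = 2) and *Dgka* (172 ± 9.71 RPKM) were the most abundant brakes and their ranges overlapped, followed by *Ptpn22* (83.6), *Cd6* (62.5), *Ubash3a* (41.8), *Cd5* (33.5), *Ptpn2* (27.1), *Dgkz* (11.9), *Cblb* (5.63) and *Cbl* (2.56). No other neighbours in that order overlapped. In WT at day 5 *Ptpn22* led with 145 ± 0.525 RPKM, then *Ptpn6* (134 ± 14.2), *Ptpn2* (66.6), *Dgka* (51.0), *Ubash3a* (24.7), *Cd5* (15.6), *Cd6* (13.2), *Dgkz* (6.36), *Cblb* (4.78) and *Cbl* (2.23), with no overlap of neighbours. In KO the order at day 0 was the same as in WT, with an overlap of *Cd5* and *Ptpn2*. In KO at day 5 it began with *Ptpn22* (162 ± 17.7 RPKM) and *Ptpn6* (144 ± 17.6 RPKM), which overlapped, as did *Dgka* (58.2) and *Ptpn2* (56.8), and *Cd6* (22.5) stood above *Cd5* (14.1). The order at the top depends on the length used. With the longest transcript, *Dgka* led in WT at day 0 (290 ± 16.3), ahead of *Ptpn6* (213 ± 12.6) and *Ptpn22* (206 ± 7.06), which overlapped, and *Ptpn22* (209 ± 13.2) and *Dgka* (208 ± 4.21) led in KO and overlapped, while *Ptpn22* led in both genotypes at day 5 with either length.

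Of the summed RPKM of the 10 brakes (617, 551, 463 and 505 in WT at day 0, KO at day 0, WT at day 5 and KO at day 5), the share of *Dgka* went from 27.9% to 11.02% in WT and from 22.4% to 11.5% in KO. The share of *Ptpn22* went from 13.6% to 31.2% in WT and from 15.4% to 32.1% in KO, and that of *Ptpn2* from 4.42% to 14.4% and from 5.16% to 11.2%. *Cd6* went from 10.1% to 2.84% and from 12.5% to 4.45%. The share of *Ptpn6* lay between 27.4% and 28.9% in all 4 groups. With longest transcript lengths the share of *Ptpn22* was 20.7% and 45.2% in WT and 23.3% and 45.8% in KO (day 0, then day 5), that of *Ptpn2* 3.22% and 9.94% in WT and 3.72% and 7.66% in KO, and that of *Ptpn6* 20.1% to 21.5% in all 4 groups, so the shares depend on the length used.

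Ratios of related brakes were taken within each library, as a description, and were not tested. *Dgka* exceeded *Dgkz* by log2 3.85 ± 0.03 (SD, n = 2) in WT and 3.16 ± 0.09 in KO at day 0, and by 3.0 ± 0.04 and 2.64 ± 0.28 at day 5. The excess was largest in uncultured WT cells. *Cd5* lay below *Cd6* at day 0 (-0.90 ± 0.07 in WT, -1.14 ± 0.41 in KO). At day 5 it lay above it in WT (0.23 ± 0.29) and below it in KO (-0.67 ± 0.09). With longest transcript lengths, WT replicate 1 at day 5 was at -0.015 and replicate 2 at 0.39, so that *Cd5* was not above *Cd6* in both. *Ptpn6* exceeded *Ptpn22* by 1.07 ± 0.04 and 0.83 ± 0.09 at day 0, with ratios of -0.12 ± 0.15 and -0.18 ± 0.34 at day 5. With the length of the longest transcript in place of merged exons, these ratios were 0.053 and -0.19 at day 0 and -1.13 and -1.19 at day 5 (WT, then KO), so the day 0 excess depends on the length used, and the change with culture within a pair does not. *Cbl* lay below *Cblb* in every library, by -1.13 ± 0.13 and -0.69 ± 0.07 at day 0 and -1.10 ± 0.01 and -1.54 ± 0.18 at day 5 (WT, then KO).

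**Figure D4:**
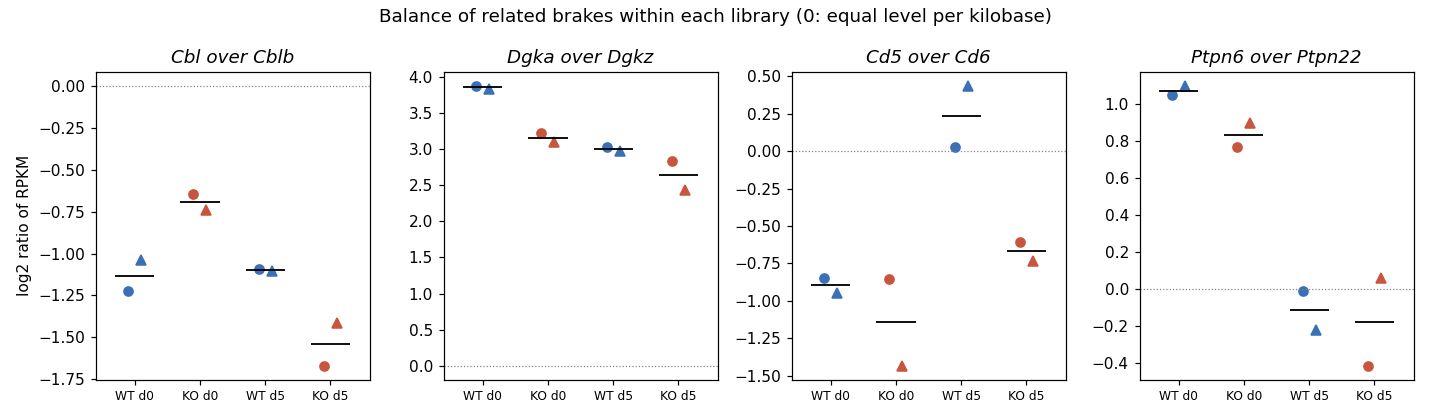
Log2 ratio of RPKM (vertical axes, each with its own range) of related brakes in each library, with blue for WT, red for libraries labelled KO, circles and triangles for replicates 1 and 2, lines for the mean of 2 and a dotted line at equal levels. With merged exon lengths *Cd5* lies above *Cd6* in the WT libraries of day 5 (mean 0.23) and below it in the other 6.

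The change of the brakes was set beside lists of the genes around them. Of 33 other inhibitors of T-cell signalling, 30 were tested, of which 5 rose and 10 fell in WT and 7 rose and 8 fell in KO (medians -0.30 and -0.19). The 50.0% called in each genotype lies near the 48.3% (WT) and 50.2% (KO) of all genes. *Cish*, a cytokine-induced inhibitor that also targets phospholipase C in CD8+ T cells, rose by 3.55 ± 0.23 in WT (FDR = 9.55e-08) and 4.21 ± 0.23 in KO (FDR = 1.54e-08), from between 10.2 and 17.8 CPM to between 151 and 260 CPM. *Rc3h1*, which encodes the RNA-binding repressor Roquin-1, fell by 1.54 and 1.97 on the log2 scale (FDR = 3.08e-06 and 2.82e-07). *Pag1*, the adaptor that anchors the inhibitory kinase Csk, fell by 1.49 and 1.47 (FDR = 7.09e-05 and 5.56e-05). *Dok2*, an adaptor that recruits RasGAP, rose by 0.82 and 1.54 (FDR = 0.000817 and 4.40e-06). At day 0 and day 5 none of the 30 was called between genotypes with edgeR (5 and 6 at an unadjusted p under 0.05, beside 13.8% and 14.1% of all genes), and DESeq2 called 4 at day 5 (4.16% of the 8445 genes with an FDR).

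Of 24 genes of the receptor and its proximal signalling, 1 rose and 11 fell in WT, and 2 rose and 8 fell in KO (medians -0.38 and -0.18). That is 50.0% in WT and 41.7% in KO, near or below the shares of all genes, 48.3% and 50.2%. *Cd3e* and *Cd247*, subunits of the receptor complex, fell in WT (-0.91 and -0.90, FDR = 1.93e-05 and 4.11e-05) and in KO (-0.70 and -0.67, FDR = 0.000143 and 0.000407). *Prkcq*, the kinase activated by diacylglycerol in T cells, fell by 0.92 and 0.83 (FDR = 0.000277 and 0.000559). Between genotypes *Lat* was lower in KO at day 0 (-0.54, FDR = 0.0269), and *Cd28*, the costimulatory receptor, was higher in KO at day 5 (0.56, FDR = 0.0327), where 2 genes of the list were called. That is 4.17% of the list at day 0 and 8.33% at day 5, from 1 and 2 genes, beside 1.80% and 1.63% of all genes. The number called in this list at day 5 was 0 without any 1 of 6 libraries, namely both WT libraries of day 0, both of WT at day 5 and both of KO at day 5, and also 0 with only the 4 libraries of day 5. At day 0 it was 0 without any 1 of the 4 day 0 libraries or without replicate 1 of KO at day 5, and with the GC and length offset. In KO culture 6 were called without replicate 2 of KO at day 5.

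Of 8 adaptors and ligands of CBL, UBASH3A, CD5 and CD6, 4 fell in WT, and 6 fell and 2 rose in KO (5 were called in KO without replicate 1 of KO at day 5, and 5 without its replicate 2). The WT share of 50.0% is near that of all genes (48.3%). In KO 100% of the list was called, beside 50.2% of all genes, a difference that was not tested. *Cd72*, a proposed ligand of CD5, fell by 1.43 and 0.99 (FDR = 3.03e-05 and 0.000474), and *Rapgef1*, the exchange factor bound by CRK adaptors, fell by 1.12 and 1.23 (FDR = 0.00114 and 0.000346). *Crk* fell by 1.35 in KO (FDR = 0.000145). *Alcam*, the ligand of CD6, rose in KO (1.71 ± 0.52, FDR = 0.0151) but stayed under 6 CPM in every library, and was named after its values were seen. Its call was lost without replicate 2 of KO at day 0 (FDR = 0.0651) or replicate 1 of KO at day 5 (FDR = 0.109). Of 14 relatives of the brakes, 10 were tested, of which 1 rose and 2 fell in WT and 2 fell in KO (30.0% and 20.0% of the 10, beside 48.3% and 50.2% of all genes, a difference that was not tested). DESeq2 called 1 in WT and 0 in KO, and with a library left out the number in KO ran from 0 (without replicate 2 of KO at day 0 or at day 5) to 4 (without either WT library of day 5). In WT the call of *Dgkq* was lost without any 1 of 6 libraries, namely all but the KO libraries of day 0, that of *Ptpn12* without replicate 2 of WT at day 0 or day 5, and that of *Ptpn1* without replicate 2 of WT at day 0 or replicate 1 of WT at day 5.

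**Figure D5:**
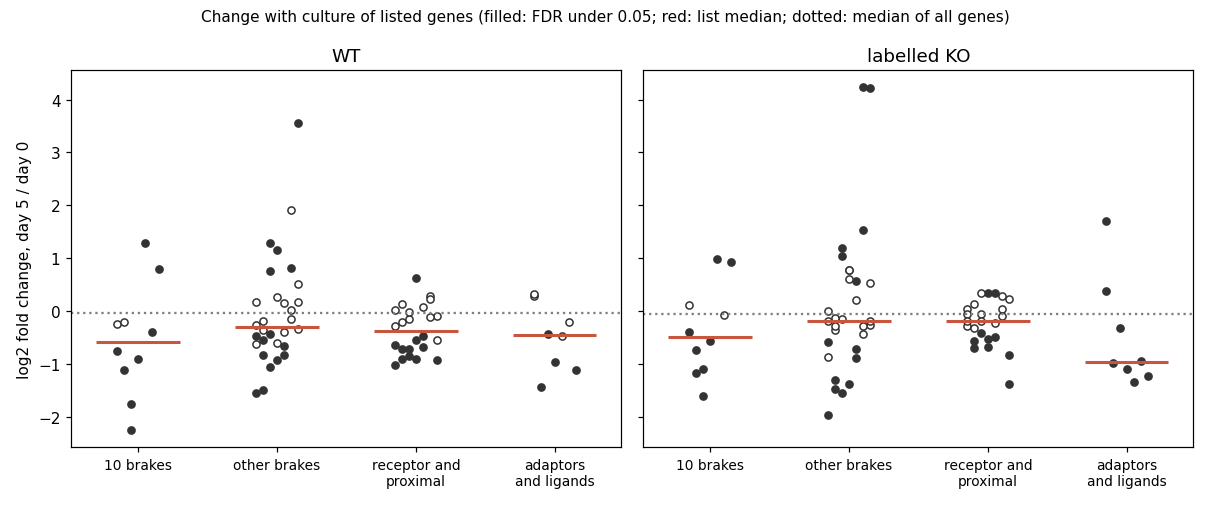
Log2 fold change from day 0 to day 5 (vertical axis) of the tested genes of 4 lists in WT (left) and libraries labelled KO (right), with filled points for FDR under 0.05, red lines for list medians and a dotted line for the median of all genes. The medians of these 4 lists lie below the dotted line (brakes -0.58 and -0.48, other inhibitors -0.30 and -0.19, receptor and proximal genes -0.38 and -0.18, adaptors and ligands -0.46 and -0.96).

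Tested genes with an assigned name and a mean of at least 10 CPM were compared with each brake. Over the 8 libraries, the genes whose log2 CPM followed each brake most closely were identified. These were *Cdc14b* for *Cd6* (Pearson r = 0.998), *Pde2a* for *Dgka* (0.997), *Ccnh* for *Ptpn2* (0.997), *Stim2* for *Ptpn22* (0.996), *Med12* for *Dgkz* (0.994), *Bach2* for *Cd5* (0.992), *Scamp2* for *Ubash3a* (0.987), *Tgif1* for *Cbl* (0.986), *Gemin5* for *Ptpn6* (0.972) and *Cnst* for *Cblb* (0.900). The 8 libraries share 2 days and 2 labels, and these values are a description. Each gene was picked for its likeness over these same libraries, so a shared difference between genotypes is not a separate observation. *Pde2a*, like *Dgka*, was lower in KO than in WT before culture (30.6 against 57.8 CPM) and both groups were lower after it (7.09 CPM in KO and 5.78 CPM in WT). *Cdc14b*, like *Cd6*, stood higher in KO than in WT after culture (12.97 against 6.85 CPM).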

How the data were processed

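RNA of CD8+ T cells (WT and KO, day 0 and day 5, 2 libraries each) was sequenced as 50-base reads. The authors deposited 1 table of raw counts a library, by gene symbol, neither normalized nor pooled. The submitters' processing notes name HISAT2 2.1.0, HTSeq 0.11.1 and mm10. The annotation, the strand setting and the roles of the tools are not given in the sources used here. Lines of the counting program that name no gene left 21.2% to 24.5% of records assigned to genes.

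The counts of all 8 libraries entered a single edgeR 4.0.16 quasi-likelihood fit (R 4.3.3, TMM factors, default filter with minimum count 10), which left 12597 genes with a common biological coefficient of variation of 15.0%. P-values were two-sided and adjusted by Benjamini-Hochberg over all genes (FDR), and an FDR under 0.05 was called. The interaction subtracts the genotype difference of day 0 from that of day 5. The SE of a log2 fold change was derived as its absolute value divided by the square root of the quasi-likelihood F statistic. RPKM used merged exon length from GENCODE M21 (GRCm38). Correlations used log2(CPM + 1). The fit was tested on simulated data with the same spread for every gene and no change with culture in WT. Such data do not show how the fit performs on the real counts.

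The members and gene lists were chosen with earlier results of these data known. All members, *Satb1*, at most 3 genes per list and comparison with the smallest FDR, tested relatives and the most alike gene were named by rule. *Cd8a*, *Cd8b1* and the B-cell and myeloid exceptions were chosen after their values were seen. Some listed genes that are included in the counts are not reported here. Alternatives were DESeq2 1.42.0 and its size factors, library totals, no filter, the edgeR 4 form of the method, only the 4 libraries of a comparison, a replicate block, an offset for GC content and exon length (available for 96.7% of tested genes), longest transcript length and each library left out. Libraries with the same number correlated in their deviations by 0.118 (WT) and 0.228 (KO) between days and by 0.00438 and -0.0165 between genotypes, and with 2 pairs per comparison the numbers were not taken to pair libraries.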

Additional observations from a re-analysis of the deposited data

Results flagged for a closer look

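The genotype difference of *Satb1* itself differed between the days, with an interaction log2 fold change of -1.34 ± 0.21 (edgeR FDR = 0.0269), being 0.51 at day 0 and -0.84 at day 5. The call was lost with the GC and length offset (-1.15, FDR = 0.0787) and without replicate 1 or 2 of WT at day 0 (FDR = 0.156 and 0.23), replicate 1 of KO at day 0 (FDR = 0.0501), replicate 2 of WT at day 5 (FDR = 0.0556) or replicate 1 or 2 of KO at day 5 (FDR = 0.177 and 0.123), and the value stayed between -1.49 and -1.15 in all 15 alternatives run. In groups of 2 libraries single values far from the others were not looked for.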

How the results depend on the processing

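Of 790 alternative values for the 10 brakes in the 5 comparisons, 749 kept direction and side of the threshold, 11 lost a call, 7 gained one and 23 changed sign. In both genotypes the falls of *Cd6*, *Dgka*, *Cd5*, *Dgkz* and *Ubash3a* and the rises of *Ptpn2* and *Ptpn22* kept their sign in all 16 alternatives. Brakes called at day 0 numbered 1 (*Dgka*) with DESeq2 and with only the 4 libraries, and 0 to 1 with a library left out; at day 5 they numbered 0 to 1, in WT culture 7 to 8 and in KO culture 5 to 8 with a library left out, and for the interaction 2 with DESeq2. With a library left out its partner is assumed to vary like the other groups. Sign changes were all in uncalled values. Without the filter *Cblb* at day 0 was 0.012; with the GC and length offset *Ptpn2* and *Ptpn22* at day 0 were -0.0088 and -0.064, *Ptpn6* at day 5 -0.065 and the interaction of *Dgkz* -0.013; with library totals *Cblb* in KO culture was -0.073. With a library left out, ranges at day 0 were -0.12 to 0.069 (*Cblb*), -0.13 to 0.27 (*Ptpn2*), -0.049 to 0.12 (*Ptpn22*), -0.19 to 0.11 (*Ubash3a*) and -0.40 to 0.21 (*Cd5*), at day 5 -0.27 to 0.045 (*Cbl*), -0.032 to 0.22 (*Ptpn6*) and -0.31 to 0.049 (*Cd5*), for *Ptpn6* in KO culture -0.19 to 0.059, and for the interaction of *Cd5* -0.36 to 0.26. The cause of these changes was not tested. Library totals shifted the median change of all genes with culture by -0.14 in WT and -0.18 in KO, and the higher share of calls from 51.2% to 42.8% and from 52.1% to 41.2%. The GC and length offset shifted it by -0.14 and -0.15, and the share to 42.9% and 42.8%. Genes called at day 0 numbered 434 without the filter against 227; at day 5, 418 without the filter, 351 with DESeq2 and 121 with the offset against 205; for the interaction 154, 135 and 12 against 20. With a library left out these counts, the background of the brakes' own, ran from 38 (without replicate 1 of WT at day 0; 49 without its replicate 2) to 276 at day 0, from 32 (without replicate 2 of KO at day 5; 54 without its replicate 1, 84 without replicate 2 of WT at day 5) to 249 at day 5, and from 0 (without replicate 1 of WT at day 0) to 41 (without replicate 1 of WT at day 5) for the interaction. With a replicate block the brakes called numbered 0, 1, 8, 8 and 0 in the 5 comparisons, as without it, and all genes called 216, 215, 5999, 6291 and 29. Groups of 2 libraries limit the precision of every value.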
